A study of Mus musculus with 4 samples.

Results

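The 10 genes described here are the interleukin 1 (IL-1) family and its receptors in injured muscle of *Nse-Bmp4* mice: the ligands *Il1a*, *Il1b*, *Il18* and *Il33*, the receptor antagonist *Il1rn*, the receptors and receptor chains *Il1r1*, *Il1r2*, *Il1rap* and *Il1rl1*, and the inflammasome sensor *Nlrp3*. They were taken by symbol from the 32285 genes in the count matrices, where each symbol stood for 1 gene. The data were 4 droplet single-cell RNA-seq libraries of tibial muscle, 1 uninjured and 3 taken after injury with cardiotoxin (CTX), a snake venom toxin that destroys muscle fibres. The injured muscles were harvested on day 1, 3 or 7 (days post-injury, dpi). Each library was a collagenase digest that mixed 3 muscles of C57BL/6 mice aged 6-8 weeks. All 4 groups, the uninjured one included, carried a transgene in which the rat neuron-specific enolase promoter drives mouse *Bmp4*, and in these mice muscle injury is followed by heterotopic ossification, that is, bone formed in soft tissue. No group without the transgene and no injury without CTX was analysed here, and with 1 pooled library per group a difference between days cannot be told apart from a difference between pools.

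IL-1α and IL-1β act on cells through the IL-1 receptor type 1 (*Il1r1*) together with the accessory chain *Il1rap*, and the complex signals through Myd88 and IRAK kinases to NF-kappaB. Brakes work outside the cell: the antagonist encoded by *Il1rn* occupies the receptor without signalling, and the decoy receptor encoded by *Il1r2* binds ligand without a signalling domain. IL-1β and IL-18 are made as precursors that inflammasomes such as the one built on NLRP3 mature through caspase-1, whereas IL-33 is a nuclear protein of stromal and barrier cells that is released on damage and binds ST2, the product of *Il1rl1*.

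The promoters of the 2 IL-1 agonists and of the antagonist are shown because these 3 genes were found in the same myeloid classes but changed by different amounts. Each sequence is the 250 bases before the RefSeq transcription start on GRCm38.p6, read 5′ to 3′ on the gene's own strand. *Il1a* (chr2:129309973-129310222, minus strand) and *Il1b* (chr2:129371140-129371389, minus strand) are neighbours with 54597 bases between the genes, and *Il1rn* (chr2:24336610-24336859, plus strand) lies elsewhere on chromosome 2. Capitals mark matches to 5 motifs searched on both strands.
Il1a: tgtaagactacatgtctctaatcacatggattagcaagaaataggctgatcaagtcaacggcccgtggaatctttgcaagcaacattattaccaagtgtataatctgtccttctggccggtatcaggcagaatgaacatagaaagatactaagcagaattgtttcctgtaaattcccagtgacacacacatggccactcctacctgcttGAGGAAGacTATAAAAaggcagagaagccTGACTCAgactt
Il1b: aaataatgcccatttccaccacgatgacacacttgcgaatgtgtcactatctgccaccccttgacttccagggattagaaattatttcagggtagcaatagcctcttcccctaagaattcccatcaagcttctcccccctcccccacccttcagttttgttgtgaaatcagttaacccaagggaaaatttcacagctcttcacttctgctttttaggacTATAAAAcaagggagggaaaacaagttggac
Il1rn: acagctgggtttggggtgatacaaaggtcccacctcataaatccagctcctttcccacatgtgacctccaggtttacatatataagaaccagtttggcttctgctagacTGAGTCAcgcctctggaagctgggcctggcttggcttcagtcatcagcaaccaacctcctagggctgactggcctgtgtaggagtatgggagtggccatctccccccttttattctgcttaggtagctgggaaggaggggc
One was an AP-1 type site, spelled TGACTCA with any base in its middle position, which 6.75% of 32851 mouse promoter windows of the same length held on either strand. A PU.1 type site, spelled GAGGAAG, was present in 10.6% of the windows and the TATA box, spelled TATAAAA, in 4.98%. The remaining motifs were an NF-kappaB type site, in 4.65%, and a C/EBP type site, spelled TTGCNNAA, in 9.56%, and no match shown overlapped another. In these windows *Il1a* held an AP-1 type match beginning 12 bases before the start, a TATA box at 32 bases and a PU.1 type match at 41 bases. *Il1b* held the TATA box at 31 bases, and *Il1rn* held an AP-1 type match at 141 bases, in the window of 1 of its 3 listed starts. Among the other members, *Il1r1* and *Il1rl1* each held a C/EBP type match, at 133 and 34 bases. A match describes these letters only and is not a binding site.

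UMIs were counted per whole gene, with positions on GRCm38 (GENCODE M21). The IL-1 agonist and antagonist genes were *Il1a* (ENSMUSG00000027399, chr2:129299610-129309972, minus strand), *Il1b* (ENSMUSG00000027398, chr2:129364570-129371139, minus strand) and *Il1rn* (ENSMUSG00000026981, chr2:24336853-24351494, plus strand). The receptor genes *Il1r2* (ENSMUSG00000026073, chr1:40074079-40125231, plus strand), *Il1r1* (ENSMUSG00000026072, chr1:40225080-40317257, plus strand) and *Il1rl1* (ENSMUSG00000026069, chr1:40429570-40465415, plus strand) lay in this order along chromosome 1. The others were *Il1rap* (ENSMUSG00000022514, chr16:26581704-26730117, plus strand), *Il18* (ENSMUSG00000039217, chr9:50554827-50581840, plus strand), *Il33* (ENSMUSG00000024810, chr19:29925114-29960718, plus strand) and *Nlrp3* (ENSMUSG00000032691, chr11:59541568-59566956, plus strand).

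The libraries held 12031, 11722, 15160 and 23752 cell barcodes (Uninjured, 1, 3 and 7 dpi), with a median of 8629, 5562, 4214 and 3083 UMIs per cell, so that 7 dpi was sampled the least deeply per cell. After filtering 52853 cells remained, and 45945 of them (86.9%) fell into 1 of 18 classes by lists of 8 marker genes, none of which is a member. A class name used below means cells that carried the markers (for example neutrophil-like), not a sorted population. Among genes outside the marker lists, *Dcn* was highest in mesenchymal stem cell (MSC) lineage cells (11577 UMIs of the gene per 1000000 UMIs, CPM), *S100a9* in neutrophils (105769 CPM), *Lyz2* in monocytes and macrophages (9940.5 CPM), *Lck* in T cells (277 CPM) and *Kit* in mast cells and basophils (610.0 CPM). Some genes checked were highest in another class than their own. *Col1a1* stood at 6439 CPM in MSC lineage cells, against 13929 in chondrocytes. *Ptprc* stood at 775 CPM in group 2 innate lymphoid cells, against 1949 in NK cells. The others were *Cd34* for endothelial cells, *Cd74* for B cells, and *Myb* and *Camp* for granulocyte progenitors. Another 4096 cells (7.75%) carried markers of several classes and 2812 (5.32%) of none. Levels below are CPM from the UMIs summed over all cells of a class in a library, with an exact Poisson 95% interval, and ratios carry a conditional binomial 95% interval. These intervals cover counting error only. A change is called where the CPM ratio was at least 2-fold with at least 30 UMIs over both libraries. Because the libraries read transcript ends, levels are compared between cells and days and not between genes.

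By the class that held the most UMIs, the family divided into a myeloid and a mesenchymal set. Of the UMIs of each gene over all 4 libraries, monocytes and macrophages held 68.5% for *Il1a* (126 of 184), 46.4% for *Il1b* (31422 of 67652), 69.3% for *Il1rn* (3268 of 4716) and 56.2% for *Nlrp3* (3543 of 6301). MSC lineage cells held 94.4% for *Il33* (26760 of 28348), 87.6% for *Il1r1* (19411 of 22170), 77.9% for *Il18* (8725 of 11197), 71.6% for *Il1r2* (6361 of 8881), 65.5% for *Il1rap* (2613 of 3990) and 45.9% for *Il1rl1* (1076 of 2342). Thus both IL-1 agonists were found mainly in myeloid cells while their signalling receptor was found mainly in mesenchymal cells. MSC lineage cells were also the largest class (8393, 3841, 6237 and 10153 cells), and the levels below, being CPM, do not depend on class size. By CPM at 1 dpi, some genes of the mesenchymal set were higher in other classes. *Il1r2* was higher in neutrophils (408 against 27.9 in MSC lineage cells) and *Il18* in monocytes and macrophages (64.8 against 37.4). *Il1rap* was higher in Schwann cells (109 against 17.5) and *Il1rl1* in group 2 innate lymphoid cells (974 against 7.23).

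**Figure D1:**
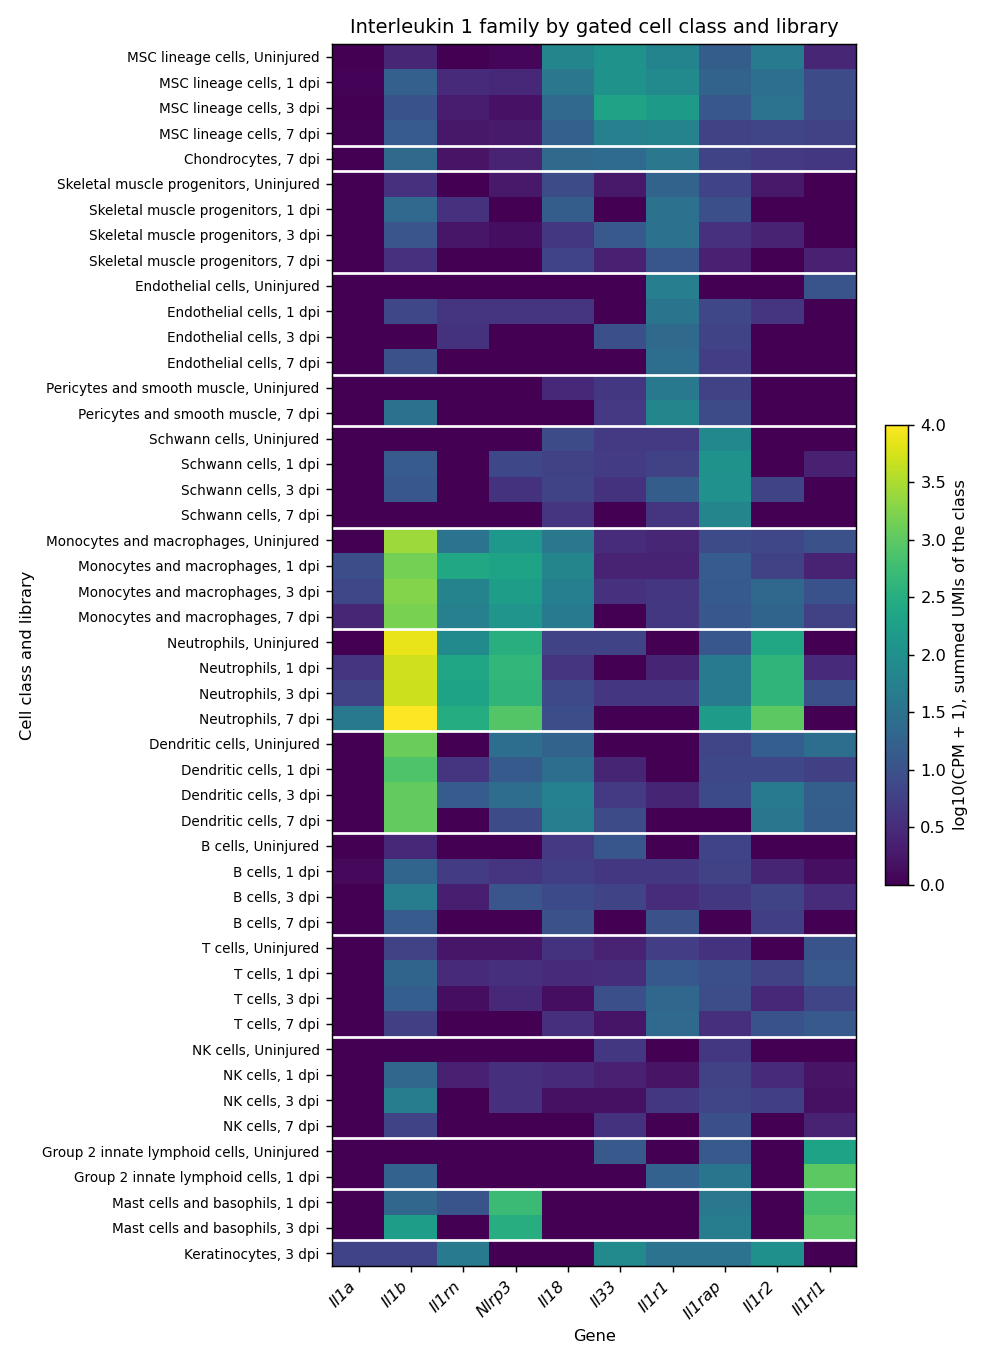
Level of each member in 15 of the 18 gated cell classes and each library with at least 20 cells of the class, as log10 of CPM + 1 from summed UMIs. *Il1b* and *Il1rn* are brightest in monocytes and macrophages and in neutrophils, *Nlrp3* in these and in mast cells and basophils, *Il33* and *Il1r1* in MSC lineage cells, *Il1rap* in Schwann cells and neutrophils, and *Il1rl1* in group 2 innate lymphoid cells and in mast cells and basophils.

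The heat map gives every member in every class with enough cells. It shows *Il1b* far above every other class in neutrophils, monocytes and macrophages and dendritic cells, and *Il1r2* as the member that is bright in both MSC lineage cells and neutrophils.

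*Il1b*, the secreted agonist that needs caspase-1 to mature, accounted for 9139, 32332, 19770 and 6411 UMIs in the Uninjured, 1, 3 and 7 dpi libraries, or 102, 452, 227 and 64.9 CPM of all cells kept. Monocytes and macrophages held 50.3%, 55.0%, 36.5% and 28.5% of these, and neutrophils held 14.3%, 30.7%, 15.0% and 18.4%. Cells with markers of several classes held 25.4%, 8.74% and 25.4% in the first 3 libraries, and were not placed in a class. Per library the gene was thus most abundant at 1 dpi.

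Within the myeloid cells the order was different. In monocytes and macrophages *Il1b* stood at 2561 (2487-2636) CPM in Uninjured, 1461 (1439.6-1483) at 1 dpi, 1820.3 (1779-1863) at 3 dpi and 1559 (1488-1632) at 7 dpi. The uninjured library was the highest, and the level at 1 dpi was 1.75-fold lower (1.70-1.81), under the 2-fold limit. In neutrophils, the granulocytes that reach injured tissue first, it stood at 7283 (6893-7689), 5217 (5115-5320.5), 4956 (4779-5137) and 9657 (9114-10225) CPM. The neutrophil level was 1.40-fold lower (1.32-1.48) at 1 dpi than in Uninjured and 1.95-fold higher (1.82-2.09) at 7 dpi than at 3 dpi, both short of 2-fold, and the Uninjured and 7 dpi values rest on 46 and 80 cells. The number of gated monocytes and macrophages was 243, 1552, 816 and 272, and of neutrophils 46, 411, 258 and 80, so the library total was highest where these cells were most numerous.

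The monocyte and macrophage class was divided by marker lists into *Ly6c2* monocytes (*Ly6c2*, *Plac8*, *Vcan* and others), the blood-derived type, and C1q macrophages (*C1qa*, *C1qb*, *C1qc* and others), the type that includes resident macrophages. *Il1b* stood at 3610.1, 1813, 2912 and 1863 CPM in *Ly6c2* monocytes and at 1245, 813, 1311 and 823 CPM in C1q macrophages. It was 2.90-fold (2.68-3.14) higher in *Ly6c2* monocytes in Uninjured and 2.23-, 2.22- and 2.26-fold higher at 1, 3 and 7 dpi. Dendritic cells carried 1228, 795, 1108 and 1097 CPM.

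Shares of cells were compared after each cell was thinned to 1000 UMIs, since depth differed between libraries. An *Il1b* UMI was then found in 59.3% (52.8-65.5) of monocytes and macrophages in Uninjured, 43.5% (41.1-46.1) at 1 dpi, 55.7% at 3 dpi and 48.9% at 7 dpi, against 70.8%, 64.2%, 69.2% and 68.8% without thinning. Neutrophils carried one in 62.6%, 59.7% and 88.4% (78.4-94.9) of cells at 1, 3 and 7 dpi (69.8%, 65.9% and 92.5% without thinning), while the uninjured library had too few for a share. T cells, which are not a usual source of IL-1β, carried one in 0.276%, 1.32%, 1.41% and 0.653% of thinned cells. Their median depth was 3557, 4038, 2361 and 1966 UMIs, against 6889, 7643, 4777 and 3850.5 in monocytes and macrophages.

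**Figure D2:**
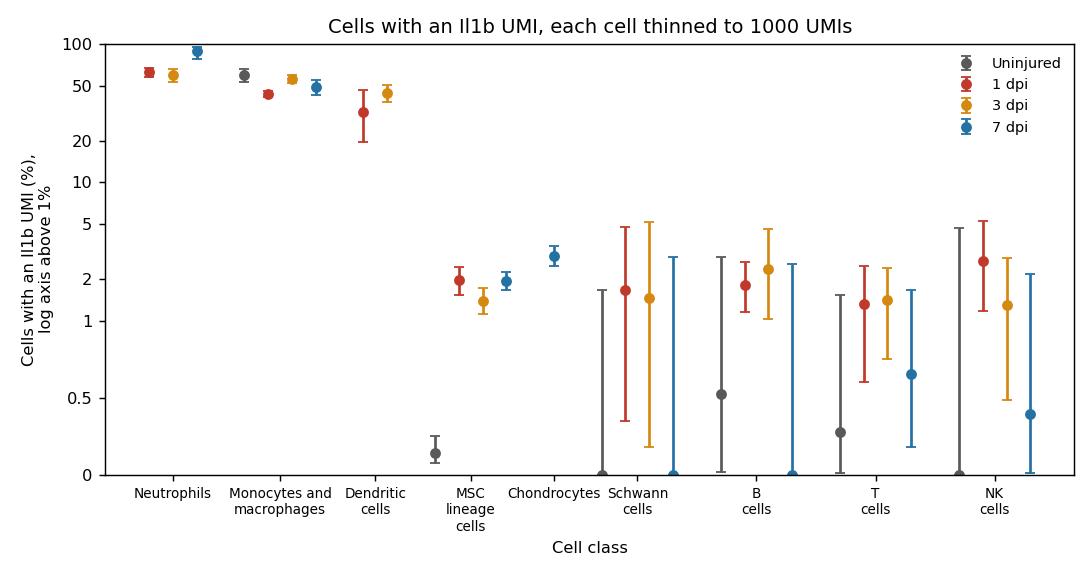
Percent of cells with at least 1 *Il1b* UMI after each cell was thinned to 1000 UMIs, by class and library (vertical axis linear to 1% and logarithmic above; bars are exact Clopper-Pearson 95% intervals; classes with at least 50 cells in the library). Neutrophils and monocytes and macrophages sit between 43.5% and 88.4%, and MSC lineage cells, chondrocytes, B cells and T cells at or under 2.94%.

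The plot of shares separates neutrophils and monocytes and macrophages from the mesenchymal and lymphoid classes, with no overlap of intervals. MSC lineage cells nevertheless held 134, 559, 508 and 723 *Il1b* UMIs, or 1.70 (1.42-2.01), 15.8 (14.6-17.2), 9.15 (8.38-9.99) and 13.5 (12.5-14.5) CPM, that is, 9.32-fold (7.71-11.3) more at 1 dpi than before injury. At 1 dpi B cells (19.4 CPM), T cells (18.2 CPM) and NK cells (20.2 CPM) stood at the same level, and after thinning 1.96% (1.54-2.45) of MSC lineage cells carried an *Il1b* UMI against 1.80% (1.16-2.67) of B cells and 1.32% (0.603-2.48) of T cells. The level in MSC lineage cells at 1 dpi was therefore not above that of lymphoid cells, and its source was not tested. There 5 of the MSC lineage cells held 91 of the 559 UMIs. At 7 dpi the shares were 1.95% (1.68-2.25) in MSC lineage cells and 2.94% (2.49-3.45) in chondrocytes, a class present only in that library (5127 cells, 23.1 CPM), against 0.653% (0.178-1.66) in T cells. Without thinning the MSC lineage shares were 0.906%, 11.2%, 5.55% and 4.79%.

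Most *Il1b*-positive MSC lineage cells held a single UMI (68 of 76, 393 of 432, 300 of 346 and 363 of 486), and 1 cell held as many as 18, 47, 30 and 9. In chondrocytes 258 of 371 positive cells held 1 UMI, and 18 cells with at least 5 held 153 of the 645 UMIs. Of the 8 neutrophil markers 7 or 8 had a UMI in MSC lineage cells, with a summed level of 368, 139.8, 72.1 and 62.5 CPM, nearly all of it *G0s2* (367, 125, 60.7 and 54.0 CPM), a gene also used by adipogenic cells. All 8 markers of monocytes and macrophages had one in every library. In chondrocytes the neutrophil list summed to 55.1 CPM. The part of these cells in the *Il1b* values was not tested.

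*Il1rn*, the antagonist, gave 128, 3754, 611 and 223 UMIs per library. In monocytes and macrophages it stood at 31.8 (24.1-41.2) CPM in Uninjured, 239 (230.1-248) at 1 dpi, 61.1 (53.6-69.3) at 3 dpi and 53.8 (41.3-68.8) at 7 dpi. The 1 dpi library stood apart from the other 3, with intervals that did not overlap theirs. *Il1rn* rose 7.51-fold (5.78-9.95) from Uninjured to 1 dpi and fell 3.91-fold (3.43-4.48) from 1 to 3 dpi, and 7 dpi was 0.881 (0.657-1.17) of 3 dpi. With cells thinned to 1000 UMIs the log2 ratio of 1 dpi to Uninjured was 3.93 in place of 2.91. The thinned Uninjured value rests on few cells, since 2 of 144 cells with *Il1b* and 2 of 99 without held an *Il1rn* UMI.

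The rise of *Il1rn* was seen in both subtypes. C1q macrophages carried 55.4, 269, 46.5 and 60.9 CPM and *Ly6c2* monocytes 18.0, 227, 100.5 and 35.0 CPM, rises of 4.86-fold (3.47-7.02) and 12.6-fold (7.51-23.2) at 1 dpi. In Uninjured the level was 3.08-fold (1.62-6.20) higher in C1q macrophages, and at 3 dpi it was 2.16-fold (1.64-2.84) higher in *Ly6c2* monocytes, where the fall after 1 dpi was smaller (2.26-fold against 5.78-fold). Neutrophils carried 78.1, 234, 208 and 295 CPM, with a rise of 2.99-fold (1.77-5.52) at 1 dpi that rests on 14 UMIs in Uninjured. Unlike in monocytes and macrophages, the neutrophil level did not pass the fold in either direction after 1 dpi.

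The thinned share of monocytes and macrophages with an *Il1rn* UMI was 1.65%, 15.9%, 5.06% and 3.36% (13.6%, 43.1%, 15.4% and 9.93% without thinning), and that of neutrophils 25.4%, 15.5% and 24.6% at 1, 3 and 7 dpi. T cells carried one in 0.276%, 0.439%, 0.108% and 0% of thinned cells. The UMIs of *Il1rn* in MSC lineage cells were 1, 72, 58 and 43. Their level at 1 dpi, 2.04 CPM, was like that in T cells (1.98 CPM) and B cells (3.87 CPM) of the same library, and its source was not tested. The keratinocytes of the 3 dpi library, only 29 cells, held 8 UMIs or 43.2 CPM.

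The ratio of *Il1rn* to *Il1b* RNA therefore shifted at 1 dpi. This ratio is compared between days and cell types, leaves out *Il1a* and does not measure protein. For 100 *Il1b* UMIs, monocytes and macrophages carried 1.24 (0.938-1.61) *Il1rn* UMIs in Uninjured, 16.3 at 1 dpi, 3.35 (2.94-3.81) at 3 dpi and 3.45 (2.64-4.44) at 7 dpi. In C1q macrophages the figures were 4.45, 33.1, 3.55 and 7.40, in *Ly6c2* monocytes 0.498, 12.5, 3.45 and 1.88, and in neutrophils 1.07, 4.48, 4.19 and 3.05. The ratio was highest at 1 dpi in both monocyte and macrophage subtypes, while in neutrophils the 1 and 3 dpi values were close. In both subtypes the 1 dpi value came from more *Il1rn* together with less *Il1b*.

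**Figure D3:**
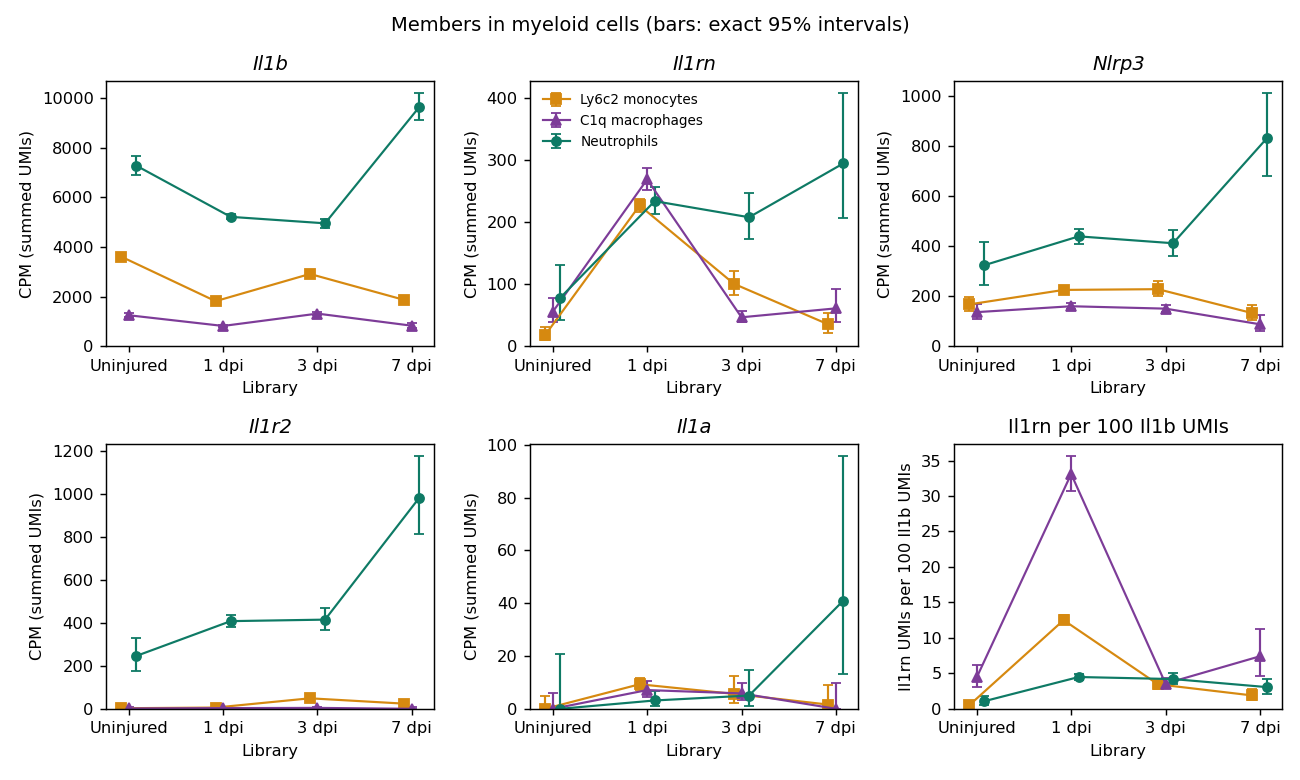
Levels of *Il1b*, *Il1rn*, *Nlrp3*, *Il1r2* and *Il1a* in *Ly6c2* monocytes, C1q macrophages and neutrophils by library (CPM of summed UMIs, exact Poisson 95% intervals), and *Il1rn* UMIs per 100 *Il1b* UMIs (exact 95% intervals). *Il1rn* peaks at 1 dpi in *Ly6c2* monocytes (227 CPM) and C1q macrophages (269 CPM), and neutrophils carry the highest *Il1b*, *Nlrp3* and *Il1r2* of the 3 at every time.

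The panels of the myeloid plot share their libraries. From Uninjured to 1 dpi *Il1b* was lower in all 3 cell types while *Il1rn* was higher.

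*Il1a*, the agonist that is active without cleavage, was rare. Monocytes and macrophages held 0, 100, 24 and 2 UMIs in Uninjured, 1, 3 and 7 dpi, or 0, 8.21 (6.68-9.99), 6.06 (3.88-9.01) and 1.71 CPM. Against a floor of 3 UMIs in Uninjured (1.67 CPM) the level was at least 4.91-fold higher at 1 dpi and at least 3.62-fold higher at 3 dpi. *Ly6c2* monocytes held 67 and C1q macrophages 25 of the UMIs at 1 dpi (9.29 and 7.09 CPM), and at 3 dpi they held 6 and 14. Neutrophils held 0, 6, 3 and 5 UMIs, the last from 80 cells and equal to 41.0 CPM. No UMI was found in T cells, NK cells, dendritic cells, Schwann cells, endothelial cells, muscle progenitors or the 5127 chondrocytes. In small classes this does not show a lower level. The upper limit at 1 dpi was 11.2 CPM in endothelial cells and 10.2 CPM in muscle progenitors, against 1.22 CPM in T cells.

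*Nlrp3*, the sensor of the inflammasome, followed the myeloid cells. It stood at 135 (118-153), 205 (197-213), 166 (154-179) and 122 (103-144) CPM in monocytes and macrophages. The 1 dpi value was 1.52-fold (1.33-1.74) above Uninjured, short of the fold. In neutrophils it stood at 324, 439.5, 412 and 835 CPM and rose 2.03-fold (1.59-2.57) from 3 to 7 dpi. C1q macrophages (136, 159.6, 150.0 and 87.4 CPM) and *Ly6c2* monocytes (167, 225, 228 and 132 CPM) differed less in *Nlrp3* than in *Il1b*. Mast cells and basophils carried 528 CPM at 1 dpi and 305 CPM at 3 dpi, from 26 and 40 cells. The MSC lineage level (0.127, 1.90, 0.595 and 0.951 CPM) lay at or below that of T cells (2.64 CPM) and B cells (3.19 CPM) at 1 dpi, and its source was not tested.

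In neutrophils and in monocytes and macrophages as a whole, a larger share of cells with *Il1b* than without it held *Nlrp3* in every library, but in C1q macrophages at 7 dpi it was 0 of 29 cells with *Il1b* against 3 of 44 without. Of thinned neutrophils at 1 dpi, 52.7% with an *Il1b* UMI (135 of 256) also held an *Nlrp3* UMI, against 9.80% of the others (15 of 153). At 3 dpi the shares were 48.2% and 3.19%. In monocytes and macrophages they were 15.3% against 4.04% in Uninjured, 20.4% against 12.3% at 1 dpi, 19.1% against 6.86% at 3 dpi and 12.2% against 9.49% at 7 dpi. *Il1rn* showed a gap between cells with and without *Il1b* in neutrophils at 1 dpi (32.4% against 13.7%) and at 3 dpi (20.9% against 7.45%), but in monocytes and macrophages of 1 dpi the shares were 17.3% and 14.7%. Cells are not replicates, and these shares are given without a test.

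*Il33*, the alarmin, was the most mesenchymal of the ligands. MSC lineage cells carried 113 (111-115) CPM in Uninjured, 114 (111-118) at 1 dpi, 198 (194-201) at 3 dpi and 53.3 (51.3-55.2) at 7 dpi. The first 2 libraries were level (ratio 1.01, 0.971-1.05), 3 dpi was 1.73-fold (1.67-1.80) higher than 1 dpi, and *Il33* fell 3.71-fold (3.56-3.87) from 3 to 7 dpi. After thinning 9.63%, 8.84%, 13.3% and 4.69% of the cells carried a UMI (43.1%, 37.6%, 41.3% and 15.0% without thinning), against 0.276%, 0.585%, 0.217% and 0% of T cells. Chondrocytes carried 23.8 CPM, monocytes and macrophages at most 2.78 CPM, and keratinocytes, which are known for nuclear IL-33, 80.9 CPM from 15 UMIs.

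The fibroblasts among the MSC lineage cells were divided by marker lists into *Pi16* fibroblasts (*Pi16*, *Dpp4*, *Sema3c*, *Wnt2* and *Anxa3*) and *Smoc2* *Col15a1* fibroblasts (*Smoc2*, *Col15a1*, *Lpl*, *Hsd11b1* and *Gdf10*), which numbered 3241, 1118, 1804 and 1895, and 4529, 2285, 3292 and 2651 cells. *Il33* in *Pi16* fibroblasts was 153, 156, 160.4 and 46.3 CPM, level until 3 dpi. In *Smoc2* *Col15a1* fibroblasts it was 88.0, 89.8, 223 and 80.1 CPM, with a rise of 2.49-fold (2.36-2.62) from 1 to 3 dpi and a fall of 2.79-fold to 7 dpi. Of these subtypes the latter thus showed the peak of *Il33* at 3 dpi, and the order of the subtypes turned, from 1.74-fold higher in *Pi16* fibroblasts in Uninjured and at 1 dpi to a ratio of 0.719 at 3 dpi and 0.579 at 7 dpi.

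*Il18*, the caspase-1 substrate that acts on T and NK cells, behaved otherwise. Among MSC lineage cells it went from 67.7 (65.9-69.5) CPM in Uninjured to 37.4 (35.4-39.5), 22.3 (21.0-23.5) and 15.6 (14.5-16.7) CPM. Without thinning each step was under 2-fold, and the level at 7 dpi was 4.34-fold lower (4.04-4.68) than in Uninjured. The size of the steps depended on thinning. With cells thinned to 1000 UMIs the log2 ratio of 3 dpi to 1 dpi was -0.25, against -0.75 without thinning. The thinned share of cells with an *Il18* UMI was 3.31% (2.77-3.93) at 1 dpi, 2.79% (2.39-3.23) at 3 dpi and 1.44% (1.21-1.70) at 7 dpi. After thinning the fall in this share was thus larger from 3 to 7 dpi than from 1 to 3 dpi. Of the 2 fibroblast subtypes, *Pi16* fibroblasts showed the fall, with 146, 85.8 and 43.2 CPM in Uninjured, 1 and 3 dpi and a 7 dpi level 7.31-fold lower (6.48-8.28) than Uninjured. They were 3241 of 8393 MSC lineage cells in Uninjured and 1895 of 10153 at 7 dpi. The part of this, and of cells in neither subtype, in the fall of the whole class was not tested. *Smoc2* *Col15a1* fibroblasts carried 10.6, 11.5, 10.4 and 11.2 CPM, and their ratio of 7 dpi to Uninjured was 1.06 (0.891-1.27). The excess in *Pi16* fibroblasts accordingly went from 13.8-fold (12.5-15.3) through 7.46- and 4.15-fold to 1.78-fold (1.47-2.15).

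*Il18* was also present in monocytes and macrophages, at 39.6, 64.8, 52.5 and 42.7 CPM, where 1 dpi was 1.64-fold (1.28-2.12) above Uninjured. Dendritic cells carried 17.7, 26.7, 57.2 and 50.2 CPM, and *Il18* rose 2.15-fold (1.28-3.82) in them from 1 to 3 dpi. Chondrocytes carried 22.8 CPM. Neutrophils held 1, 6, 4 and 1 UMIs and T cells at most 2.88 CPM, so the gene was near background in both. After thinning 6.03%, 3.31%, 2.79% and 1.44% of MSC lineage cells carried an *Il18* UMI, against at most 0.292% of T cells.

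**Figure D4:**
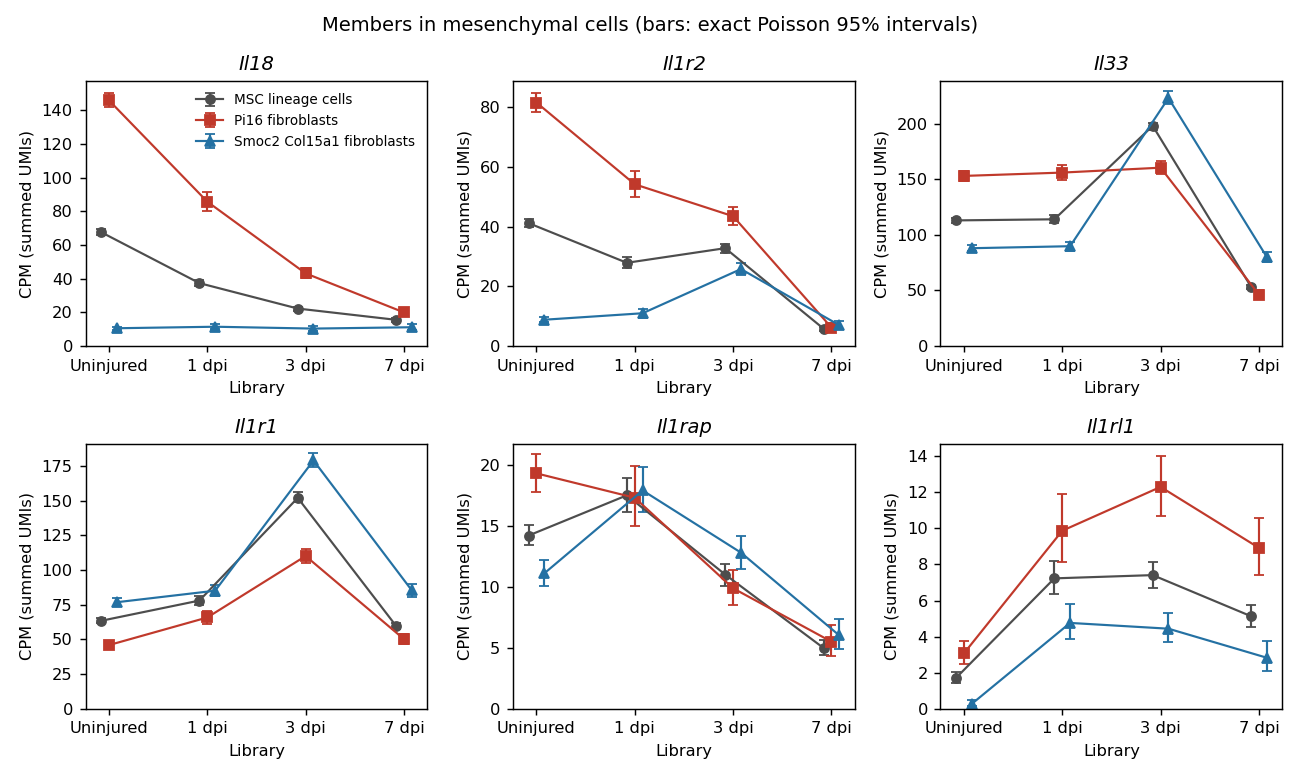
Levels of *Il18*, *Il1r2*, *Il33*, *Il1r1*, *Il1rap* and *Il1rl1* in all MSC lineage cells, *Pi16* fibroblasts and *Smoc2* *Col15a1* fibroblasts by library (CPM of summed UMIs, exact Poisson 95% intervals). *Il18* and *Il1r2* are high in *Pi16* fibroblasts of uninjured muscle (146 and 81.6 CPM) and 7.31- and 13.1-fold lower at 7 dpi, while *Il33* and *Il1r1* peak at 3 dpi in *Smoc2* *Col15a1* fibroblasts (223 and 179 CPM).

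The mesenchymal plot sets the ligands beside the receptors. *Il18* and the decoy *Il1r2* ran down in *Pi16* fibroblasts, while the peak of *Il33* at 3 dpi was in *Smoc2* *Col15a1* fibroblasts. *Il1r1* was highest at 3 dpi in both subtypes. The subtype lists together took in fewer of the MSC lineage cells at 7 dpi, when the class was largest and shallowest (median 3197 UMIs against 9160 in Uninjured), so depth moved with the change. With each cell thinned to 1000 UMIs the log2 ratio of 7 dpi to 3 dpi in MSC lineage cells was -1.71 for *Il33*, -1.26 for *Il1r1* and -2.74 for *Il1r2*, each in the direction of the unthinned value.

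*Il1r1*, the signalling receptor, stood at 63.4 (61.7-65.2) CPM in MSC lineage cells of Uninjured, 78.0 (75.1-81.0) at 1 dpi, 152 (149-156) at 3 dpi and 59.7 (57.7-61.8) at 7 dpi. The 3 dpi library was the highest, 1.95-fold (1.87-2.04) above 1 dpi, and *Il1r1* fell 2.55-fold (2.45-2.66) from there to 7 dpi, to 0.942 of Uninjured. *Smoc2* *Col15a1* fibroblasts (76.8, 85.1, 179 and 85.3 CPM) carried more than *Pi16* fibroblasts (45.9, 65.8, 110.1 and 50.2 CPM) in every library, by 1.67-, 1.29-, 1.62- and 1.70-fold. Thinned shares were 6.17%, 6.63%, 11.9% and 5.16% of MSC lineage cells (37.7%, 38.2%, 46.7% and 20.2% without thinning), against 0.412%, 0%, 0.380% and 1.49% of monocytes and macrophages.

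Other stromal cells carried *Il1r1* too. Chondrocytes had 38.1 CPM, pericytes and smooth muscle 39.9 CPM in Uninjured and 66.5 CPM at 7 dpi, endothelial cells 50.5, 33.3, 22.8 and 26.4 CPM, and muscle progenitors 18.0, 30.5, 30.5 and 10.7 CPM. Monocytes and macrophages held only 3, 17, 13 and 4 UMIs and neutrophils 0, 3, 2 and 0. T cells carried 4.33, 11.6, 19.8 and 22.5 CPM, and within them the cells with gamma-delta and interleukin 17 markers (33 at 3 dpi and 25 at 7 dpi), a type known to answer IL-1, carried 266 (173-389) and 239.7 (146-370.2) CPM. Those values rest on 26 and 20 UMIs, which were 26 of 51 and 20 of 34 *Il1r1* UMIs in all T cells of the 2 libraries.

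*Il1r2*, the decoy receptor, was carried by MSC lineage cells at 41.2 (39.8-42.6), 27.9 (26.2-29.7), 32.8 (31.3-34.3) and 5.82 (5.19-6.50) CPM. It fell 5.63-fold (4.99-6.37) from 3 to 7 dpi and was then 7.08-fold lower than in Uninjured. In *Pi16* fibroblasts it went from 81.6 through 54.2 and 43.5 to 6.21 CPM, 13.1-fold lower (10.6-16.5) at 7 dpi than in Uninjured. In *Smoc2* *Col15a1* fibroblasts it stood at 8.83, 11.0, 25.8 and 6.98 CPM, with a rise of 2.35-fold (2.02-2.75) from 1 to 3 dpi and a fall of 3.69-fold to 7 dpi. The excess in *Pi16* fibroblasts went from 9.24-fold to 4.94-, 1.69- and 0.890-fold. A minority of cells carried it, 1160, 421, 926 and 278 MSC lineage cells with a UMI, and 205, 47, 66 and 2 of these held at least 5.

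Neutrophils went the other way with *Il1r2*. They stood at 246 (178-329.7), 408, 415 and 983 (815-1175) CPM, with a rise of 2.37-fold (1.89-2.96) from 3 to 7 dpi. After thinning 36.7%, 37.3% and 60.9% of neutrophils carried a UMI at 1, 3 and 7 dpi. Monocytes and macrophages carried 6.13, 5.09, 21.4 and 18.8 CPM and rose 4.21-fold (3.00-5.94) from 1 to 3 dpi, most of it in *Ly6c2* monocytes (2.57, 5.68, 48.8 and 23.9 CPM; 8.59-fold, 5.60-13.3) and little in C1q macrophages (1.58, 3.12, 4.16 and 0 CPM). T cells stood at 0, 4.96, 1.94 and 9.26 CPM. Dendritic cells carried 14.8, 6.28, 42.4 and 35.9 CPM, and the keratinocytes of 3 dpi carried 102 CPM from 19 UMIs.

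*Il1rap*, the accessory chain shared by the receptors for IL-1 and IL-33, was widespread and low. MSC lineage cells carried 14.2, 17.5, 11.0 and 4.98 CPM, and it fell 2.21-fold (1.91-2.56) from 3 to 7 dpi. In *Pi16* fibroblasts it stood at 19.3, 17.3, 9.88 and 5.50 CPM and in *Smoc2* *Col15a1* fibroblasts at 11.1, 17.9, 12.8 and 6.01 CPM, which is 1.73-fold (1.53-1.96) higher in *Pi16* fibroblasts in Uninjured and 0.969 (0.810-1.16), 0.772 (0.641-0.927) and 0.914 (0.670-1.24) of the other subtype at 1, 3 and 7 dpi. Schwann cells, the glia of peripheral nerve, carried 71.4 (54.1-92.5), 109 (86.9-135), 105 (74.2-145) and 64.3 (39.8-98.2) CPM, with overlapping intervals between neighbouring libraries. Neutrophils carried 11.2, 43.6, 45.2 and 156 CPM and rose 3.91-fold (1.05-32.8) at 1 dpi from 2 UMIs in Uninjured and 3.44-fold (1.81-6.43) from 3 to 7 dpi, from 27 and 19 UMIs.

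*Il1rl1* encodes ST2, the receptor for IL-33, in a membrane and a soluble form that UMIs summed per gene do not separate. Its highest levels were in small classes. Group 2 innate lymphoid cells, which are known to expand on IL-33, carried 208 CPM in Uninjured (17 UMIs, 21 cells) and 974 (802-1172) CPM at 1 dpi (112 UMIs, 20 cells), and mast cells and basophils carried 675 CPM at 1 dpi (69 UMIs) and 903 CPM at 3 dpi (77 UMIs). Regulatory T cells at 1 dpi carried 83.3 CPM from 11 UMIs. Monocytes and macrophages held only 16, 18, 36 and 6 UMIs.

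In MSC lineage cells *Il1rl1* stood at 1.71, 7.23, 7.41 and 5.13 CPM, a ratio of 4.22 (3.41-5.24) from Uninjured to 1 dpi, with more in *Pi16* fibroblasts (3.07, 9.87, 12.3 and 8.92 CPM) than in *Smoc2* *Col15a1* fibroblasts (0.270, 4.76, 4.44 and 2.83 CPM). This ratio rested on few cells. The 4, 12, 16 and 4 cells with at least 5 UMIs held 41 of 135, 185 of 255, 202 of 411 and 21 of 275 UMIs, and without them the log2 ratio of 1 dpi to Uninjured was 0.74 in place of 2.08 and no longer passed the fold. Those cells had a median of 14024, 25216, 24178 and 20240.5 UMIs, against 9155, 8057, 5783 and 3196 in the others, and held 1, 1, 2 and 0 UMIs of the mast cell markers. From 3 to 7 dpi the direction in MSC lineage cells depended on processing, with a log2 ratio of -0.53, but 0.20 after thinning.

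Counted by class, the members passed the fold as follows. In monocytes and macrophages 2 of the 8 members with enough UMIs were higher at 1 dpi than in Uninjured (*Il1a* and *Il1rn*), against 16.2% of 10089 genes, and 1 was lower (*Il1rl1*, 18 UMIs at 1 dpi), against 4.56%. Within the subtypes *Il1rl1* did not fall past the fold, with 1.58 and 1.42 CPM in C1q macrophages and 0 and 1.66 CPM in *Ly6c2* monocytes. From 1 to 3 dpi 3 of 9 were higher (*Il1r1*, *Il1r2* and *Il1rl1*, of which *Il1r1* had 13 UMIs at 3 dpi), against 5.60%, and 1 was lower (*Il1rn*), against 4.45%. From 3 to 7 dpi none of 7 passed in either direction, against 2.12% higher and 9.41% lower.

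In neutrophils 2 of 5 members were higher at 1 dpi (*Il1rn* and *Il1rap*), against 25.4% of 4924 genes, and none was lower, against 2.74%. None of 5 passed from 1 to 3 dpi (2.89% and 2.29% of all genes). From 3 to 7 dpi 3 of 5 were higher (*Il1r2*, *Il1rap* and *Nlrp3*), against 9.12%, and none was lower, against 19.1%. The median log2 ratio of the 5 at that step was 1.02, against -0.17 over all genes.

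In MSC lineage cells 4 of 9 members were higher at 1 dpi, against 9.12% of 14617 genes. But these were *Il1b*, *Il1rn* and *Nlrp3*, at levels like those of lymphoid cells, and *Il1rl1*, which rested on few cells. None was lower, against 5.03%. From 1 to 3 dpi only *Nlrp3* passed, lower, against 5.95% of genes lower and 6.50% higher. From 3 to 7 dpi 4 of 9 were lower (*Il1r1*, *Il1r2*, *Il1rap* and *Il33*), against 6.93%, and none was higher, against 11.0%. The median log2 ratio of the 9 was -0.53 at that step, against -0.05 over all genes tested. At 1 dpi the well-measured genes of MSC lineage cells had a median of 0.18 on the log2 scale, so that the ratios there include a general shift of that size.

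The wider pathway was followed with a list of 32 further genes (other family ligands and receptors, adaptors, kinases, caspases and NF-kappaB inhibitors). In monocytes and macrophages 5 of 24 measured genes were higher at 1 dpi and none was lower, against 16.2% and 4.56% of all genes, so the share of the list that was higher (20.8%) was near that of all genes. They were *Il18bp*, the secreted inhibitor of IL-18 (2.23 to 40.0 CPM, 17.9-fold, 6.96-66.1), the NF-kappaB regulators *Nfkbiz* (453 to 1259 CPM) and *Tnfaip3* (388 to 962 CPM), the kinase *Irak2* (33.4 to 73.4 CPM) and the receptor chain *Il18rap*. From 3 to 7 dpi 3 of 24 were lower (12.5%, near the 9.41% of all genes), *Il18bp* (20.9 to 7.68 CPM), *Nfkbiz* (1176 to 438 CPM) and *Tnfaip3* (672 to 268 CPM). In neutrophils 8 of 21 were higher at 1 dpi (38.1%, against 25.4% of all genes), among them *Nfkbiz* (597 to 2530.3 CPM) and *Tnfaip3* (240.0 to 939 CPM). For 4 of the 8, *Irak1*, *Irak3*, *Irak4* and *Ikbkb*, the Uninjured library held only 2 to 7 UMIs and the interval of the ratio included 1. *Casp1*, the protease that matures IL-1β, was the 1 that was lower (39.1 to 13.1 CPM, from 7 and 25 UMIs), against 2.74% of all genes.

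Of the same list 4 of 25 genes measured in MSC lineage cells were higher at 1 dpi (16.0%, against 9.12% of all genes), *Il18bp* (3.49 to 16.4 CPM, 4.71-fold, 4.08-5.46), *Tnfaip3* (15.6 to 41.3 CPM), *Aim2* and *Il18rap* (both under 1 CPM). The IL-18 receptor chain *Il18r1* was the 1 that was lower (against 5.03% of all genes), from 18.9 to 2.30 CPM (8.24-fold, 6.58-10.4). Thus in these cells *Il18* was 1.81-fold lower, short of the fold, its receptor chain *Il18r1* was lower and its inhibitor was higher at 1 dpi. The receptor chain *Il18rap* went the other way, from 0.0761 to 0.737 CPM (6 and 26 UMIs). From 3 to 7 dpi 4 of 27 were lower (14.8%, against 6.93%), the IRAK inhibitor *Irak3* (52.4 to 24.1 CPM), *Casp4* (73.6 to 36.7 CPM), *Nfkb1* (117 to 56.0 CPM) and *Tnfaip3* (68.8 to 32.4 CPM), and none was higher, against 11.0%.

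A second list held 10 genes that cells are known to induce on IL-1, though other cytokines induce them as well. In MSC lineage cells 5 of 8 measured were higher at 1 dpi, against 9.12% of all genes: the neutrophil chemokines *Cxcl5* (0.901 to 163 CPM, 181-fold, 143-232) and *Cxcl2* (18.2 to 69.9 CPM), *Il6* (60.1 to 146 CPM), the monocyte chemokine *Ccl2* (212 to 549 CPM) and *Lcn2* (20.3 to 131 CPM). At 1 dpi *Cxcl2* stood far higher in monocytes and macrophages (4212 CPM) and neutrophils (9045 CPM). *Lcn2* did so in neutrophils (8617 CPM) and *Ccl2* in monocytes and macrophages (3095 CPM), while *Cxcl5* and *Il6* were lower in both classes. The part of these cells in the MSC lineage values was not tested. *Cxcl1* stood at 1166 and 651 CPM in MSC lineage cells, 1.79-fold lower and under the fold. From 3 to 7 dpi 7 of 10 were lower, against 6.93%, including *Cxcl5* (252 to 15.4 CPM, 16.4-fold), *Il6* (219 to 50.1 CPM, 4.37-fold) and *Ccl2* (1059.7 to 309 CPM, 3.43-fold). In monocytes and macrophages 5 of 8 were higher at 1 dpi, against 16.2%, among them *Ptgs2* (75.2 to 198 CPM), *Il6* (9.47 to 59.2 CPM) and *Ccl2* (1004 to 3095 CPM). The others, *Cxcl5* (4.02 CPM at 1 dpi) and *Lcn2* (15.4 CPM), had no UMI in Uninjured. At 1 dpi *Cxcl5* stood at 163 CPM in MSC lineage cells and *Lcn2* at 8617 CPM in neutrophils.

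For each member with at least 500 UMIs, the 3 genes most like it were found by Pearson's r of log2(CPM + 1) over 42 class and library pairs of at least 50 cells, among 13237 genes. Pairs of 1 library share its depth and its free RNA, and pairs of 1 class share their cell type, so r is a description only. *Il1b* was most like *Rasgrp4* (0.94), *1600010M07Rik* (0.93) and *Nlrp3* (0.92), and *Nlrp3* most like *Cd300lb* (0.95), *A530064D06Rik* (0.93) and *Cd300a* (0.93). *Il1rn* was most like *Fcgr4* and *Tlr13* (both 0.95) and *Cd300lb* (0.94), an activating myeloid receptor that thus stood beside both. *Il33* was most like *Osr1* (0.87), *Dcn* (0.87) and *Cxcl14* (0.86), genes known from connective tissue fibroblasts, and the genes most like *Il1r1* included *Lmbr1* (0.87) and *Tgfb2* (0.86).

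Among the members found in both myeloid and mesenchymal cells, *Il1rap* and *Il18* had weaker partners. The highest r of *Il1r2* was like that of *Il33*. *Il1r2* was most like *Ptgs2os2* (0.88), *Dhrs9* (0.84) and *Cd80* (0.84), *Il1rap* most like *Megf9* (0.83), *Tesk2* (0.78) and *Mid1ip1* (0.77), and *Il18* most like *Cyp27a1* (0.80), *Ifi205* (0.79) and *Naaa* (0.78), the last a dendritic cell marker used in gating. *Il1rl1* had the weakest, *Rgs10* (0.67), *Mcub* (0.65) and *Tnfsf8* (0.65). *Il1a* had too few UMIs for this comparison.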

How the data were processed

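Single cells of 4 tibial muscle libraries were counted by the authors with Cell Ranger 5.0.0 (STAR aligner), and the deposited values are raw UMI counts per gene and barcode, with mm10 and Seurat 3.1.1 also named in the submitters' processing notes. The methods also mention that reads were down-sampled to aggregate the samples, without saying if the deposited tables were made before or after. Groups came from the day in each sample title. The members and lists were chosen with earlier results of these data known.

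Cells were kept within 2 SD of the library mean of log10 UMIs and log10 genes and with at most 10% mitochondrial UMIs, and the 7.5% of barcodes with the highest Scrublet score per library were removed (scanpy 1.11.5, Python 3.11.15). A class needed at least 3 of its 8 markers (4 for chondrocytes, which may also carry MSC markers), and no other class could reach more than 0.5 of that number. Subtypes needed 2 markers of a list (3 for gamma-delta T cells). Libraries of a pair shared 30 to 95 barcodes. UMIs were summed per class and library, for levels with at least 20 cells, ratios with at least 30 and shares with at least 50. Exact Poisson, conditional binomial and Clopper-Pearson intervals came from scipy 1.17.1, and the ratio step was tested on simulated data. A pair of libraries needed 30 UMIs, and a level of 0 was set to a floor of 3 UMIs for ratios. With 1 library per group no test was made. Named genes were the members, the pathway genes past the fold, and for each member with 500 UMIs the 3 genes with the highest r, of which 1 is not reported here. Of all gene identifiers, 99.6% (32158 of 32285) matched the GENCODE M21 annotation of GRCm38. Alternatives changed the gate, doublets, cell filters, scaling, thinning and fold.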

Additional observations from a re-analysis of the deposited data

Results flagged for a closer look

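Several members moved in opposite directions in different cell classes under the same contrast, and with 1 library per group none of these differences between classes was tested. *Il1b*, *Il1r2* and *Il18* did so by at least 1.5-fold in classes that reached 20 CPM. *Il1b* from 3 to 7 dpi had a log2 ratio of 0.96 in neutrophils, -1.84 in B cells and -3.03 in NK cells. The last 2 values rest on single cells, since 1 NK cell held 82 of the 93 *Il1b* UMIs at 3 dpi and 2 B cells held 33 of 42. *Il1r2* from 3 to 7 dpi had a log2 ratio of -2.49 in MSC lineage cells and 1.24 in neutrophils, where 248 and 120 UMIs were counted. *Il18* from Uninjured to 1 dpi had a log2 ratio of -0.85 in MSC lineage cells and 0.71 in monocytes and macrophages, and from 1 to 3 dpi it had -0.75 in MSC lineage cells and 1.10 in dendritic cells. The value of -0.75 was -0.25 with cells thinned to 1000 UMIs and -0.40 by per-cell means. At lower levels or by smaller ratios, *Il1rap* from 3 to 7 dpi had -1.14 in MSC lineage cells and 1.78 in neutrophils, *Nlrp3* at that step had 1.02 in neutrophils and -0.45 in monocytes and macrophages, and *Il1rl1* from Uninjured to 1 dpi had 2.08 in MSC lineage cells and -2.59 in monocytes and macrophages (16 and 18 UMIs). Of those 16 *Il1rl1* UMIs in Uninjured, C1q macrophages held 1 and *Ly6c2* monocytes 0, so most were in cells of neither subtype.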

How the results depend on the processing

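No paired analysis was possible because each group was 1 pooled library, and for the same reason no replicate could be left out. Requiring 1 more marker per class and leaving doublets in moved none of 36 results beyond its counting interval. These results were levels or ratios of each member in the class with most of its UMIs, and counts of members past the fold. Ratios in other classes and in subtypes were not rerun. Linear 2 SD limits moved 7, totals without mitochondrial and ribosomal genes 4, the mean of per-cell CPM 15 and thinning to 1000 UMIs 18, and no value past the fold changed sign. Under the fold signs did change. *Il1rl1* in MSC lineage cells from 3 to 7 dpi (log2 ratio -0.53) was 0.05 under linear limits, 0.49 by per-cell means and 0.20 after thinning. For 1 dpi against Uninjured on the log2 scale, *Il1b* in monocytes and macrophages (-0.81) was -0.89 by per-cell means, -0.91 without mitochondrial and ribosomal genes and -0.90 after thinning. *Il1rn* there (2.91) was 3.93 after thinning, which left few *Il1rn*-positive cells in Uninjured. *Il1a* at 1 dpi (8.21 CPM) was 5.81 CPM after thinning. In MSC lineage cells *Il1r1* (0.30) was 0.21 by per-cell means and 0.06 after thinning, *Il1r2* (-0.56) was -0.66 by per-cell means, and *Il33* (0.01) was -0.10 under linear limits, -0.10 by per-cell means and -0.12 after thinning. *Il1rl1* (2.08) was 0.57 under linear limits, 1.22 by per-cell means, 1.30 after thinning and 0.74 without cells of at least 5 *Il1rl1* UMIs, an alternative chosen after seeing the data. Members higher in their leading class from 1 to 3 dpi numbered 0, but 1 under linear limits and 1 without mitochondrial and ribosomal genes (*Il1r1* in both, 1.02 against 0.97). With 1.5-fold in place of 2-fold, pathway genes higher at 1 dpi were 10 rather than 4 of 25 in MSC lineage cells. That was 40.0%, against 22.6% of all genes at 1.5-fold. In monocytes and macrophages they were 9 rather than 5 of 24, or 37.5%, near the 30.5% of all genes at 1.5-fold. The cause of these shifts was not tested, apart from the cells removed for *Il1rl1*. Leaving out mitochondrial and ribosomal genes moved the median of all genes in monocytes and macrophages at 1 dpi from -0.03 to -0.13.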
